A study of Mus musculus with 24 samples.

Results

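Excitation-contraction coupling is the step by which an action potential in a muscle fibre releases calcium from the sarcoplasmic reticulum. Here 10 of its genes were followed among 22180 genes measured on arrays of cultured mouse muscle cells. They code for the L-type calcium channel of the transverse tubule (Cacna1s, Cacnb1, Cacng1) and its adaptor Stac3, the release channel Ryr1, the tether Jph1, the calsequestrins Casq1 and Casq2, and the pumps Atp2a1 and Atp2a2. The genes were chosen by name. Each was read from the transcript cluster, the set of probes assigned to a locus, that carries its symbol alone. Ryr1 had 2 such clusters, and the brighter was used; each of the other genes had 1.

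The cells were primary cultures from quadriceps of ICR mice, grown on Matrigel and differentiated. Offspring of control dams gave 6 culture numbers, and offspring of undernourished dams, fed 50% of the control food from gestation day 12.5, gave 6 others. Litters were equalized to 8 pups in both. Each number has 1 array in a standard medium with 5.5 mM glucose and 2% fetal bovine serum, and 1 array after a night in a limited medium with 0.5 mM glucose and 1% serum, to which 1 mM glutamine and 0.5 mM carnitine were added. This gave 4 groups of 6 arrays: control standard, control limited, undernourished standard and undernourished limited. The labels name no transgene or deletion in any group. The limited medium differs from the standard medium in several components at a time, which cannot be told apart. The labels do not say what a culture number denotes, such as a pup, a litter or a dish. The p-values therefore rest on the variation among these arrays, which may be in part technical.

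In skeletal muscle the voltage sensor Cacna1s pulls Ryr1 open by direct contact at the triad, where a transverse tubule meets the terminal cisternae of the reticulum. Calsequestrin holds calcium in the cisternae beside the release channel, and the SERCA pumps return it from the cytosol after each contraction. Casq1 and Atp2a1 are the forms typical of fast fibres, whereas Casq2 and Atp2a2 are those of slow fibres and the heart, and both pairs are also present in developing muscle.

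Sequence just before the start of transcription was available from RefSeq (build GRCm38.p6) for 6 of the 10 genes, in 7 windows of 250 bases. Casq1 and Casq2 are shown because these paralogues had medium differences of opposite sign over both diets. Neither difference was called in the main fit (limma, adjusted p under 0.05). Cacnb1 is shown because it had the smallest p for the medium. In the Casq1 window (chr1:172219896-172220145, minus strand) and the Casq2 window (chr3:102086165-102086414, plus strand), capitals mark E-boxes (CANNTG, the motif bound by MyoD and related factors) and, in Casq2, a match to the MEF2 motif. In the first Cacnb1 window (chr11:98022628-98022877, minus strand) capitals mark GC boxes (GGGCGG, or CCGCCC on the other strand), and in the second (chr11:98018373-98018622, minus strand) an E-box. All are printed 5′ to 3′ on the strand of the gene.
Casq1: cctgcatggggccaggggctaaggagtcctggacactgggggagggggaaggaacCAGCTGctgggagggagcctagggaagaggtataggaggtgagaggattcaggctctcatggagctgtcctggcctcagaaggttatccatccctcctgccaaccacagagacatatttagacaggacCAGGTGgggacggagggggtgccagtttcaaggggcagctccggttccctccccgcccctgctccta
Casq2: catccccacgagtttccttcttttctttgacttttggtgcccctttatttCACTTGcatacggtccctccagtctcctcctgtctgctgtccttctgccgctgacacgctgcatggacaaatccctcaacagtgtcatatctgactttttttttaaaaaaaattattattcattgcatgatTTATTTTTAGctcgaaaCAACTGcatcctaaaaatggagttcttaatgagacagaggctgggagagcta
Cacnb1 first start: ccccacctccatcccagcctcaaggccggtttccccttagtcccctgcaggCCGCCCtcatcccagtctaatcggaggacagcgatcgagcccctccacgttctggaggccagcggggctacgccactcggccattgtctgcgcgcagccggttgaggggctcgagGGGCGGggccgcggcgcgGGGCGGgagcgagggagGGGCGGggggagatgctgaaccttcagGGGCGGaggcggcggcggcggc
Cacnb1 second start: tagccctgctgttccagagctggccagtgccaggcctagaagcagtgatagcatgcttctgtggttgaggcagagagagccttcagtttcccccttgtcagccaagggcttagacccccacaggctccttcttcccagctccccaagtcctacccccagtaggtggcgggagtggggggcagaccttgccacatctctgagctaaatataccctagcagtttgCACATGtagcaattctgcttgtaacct
The Casq1 window holds 2 E-boxes, 189 and 61 bases before the start. Casq2 holds 2 as well, at 194 and 46 bases, and its MEF2 match lies 59 bases before the start without overlapping either. The first Cacnb1 start holds 5 GC boxes and no E-box in 73.2% GC, against a median of 52.4% GC over all windows; the second has 1 E-box, 21 bases before the start. Cacna1s holds 2 E-boxes, Atp2a1 holds 1 and Ryr1 none. GC boxes also lay in the windows of Ryr1 (2), Cacna1s (1) and Casq1 (1, not marked above). Casq2, Atp2a1 and the second Cacnb1 start held none. Both strands were searched. An E-box occurred in 66.2% of 32851 mouse windows of this length, a GC box in 32.7% and a MEF2 match in 2.92%. An E-box lay in 5 of the 7 windows, which belong to 5 of these 6 genes. The ER stress element (CCAAT and CCACG with 9 bases between) occurred in 0.113% of windows and in none of the 7. A match is a run of letters and was not tested for binding.

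The mean signals of the 10 genes lay between the 91.1st and the 99.7th percentile of all genes. Signals of different probes are not amounts and set no order among genes or marker lists. The mean of 15 myotube markers was between 11.6 and 12.0 log2 signal on every array, and that of 8 satellite cell and myoblast markers was between 8.48 and 9.08. The mean of 5 cardiac markers (Myh6, Myl7, Nppa, Tnni3, Ryr2) stayed between 5.65 and 6.09, and those of endothelial and leukocyte markers at or below 5.78. Fibroblast markers stood apart in control culture 16 (7.16 and 7.78 in standard and limited medium) and undernourished culture 20 (7.29 and 7.45), against 5.39 to 6.38 on the other arrays, and glial markers reached 8.16 in undernourished culture 20. The arrays measured RNA of whole cultures, so fewer cells of a type and less RNA per cell cannot be told apart.

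**Figure D1:**
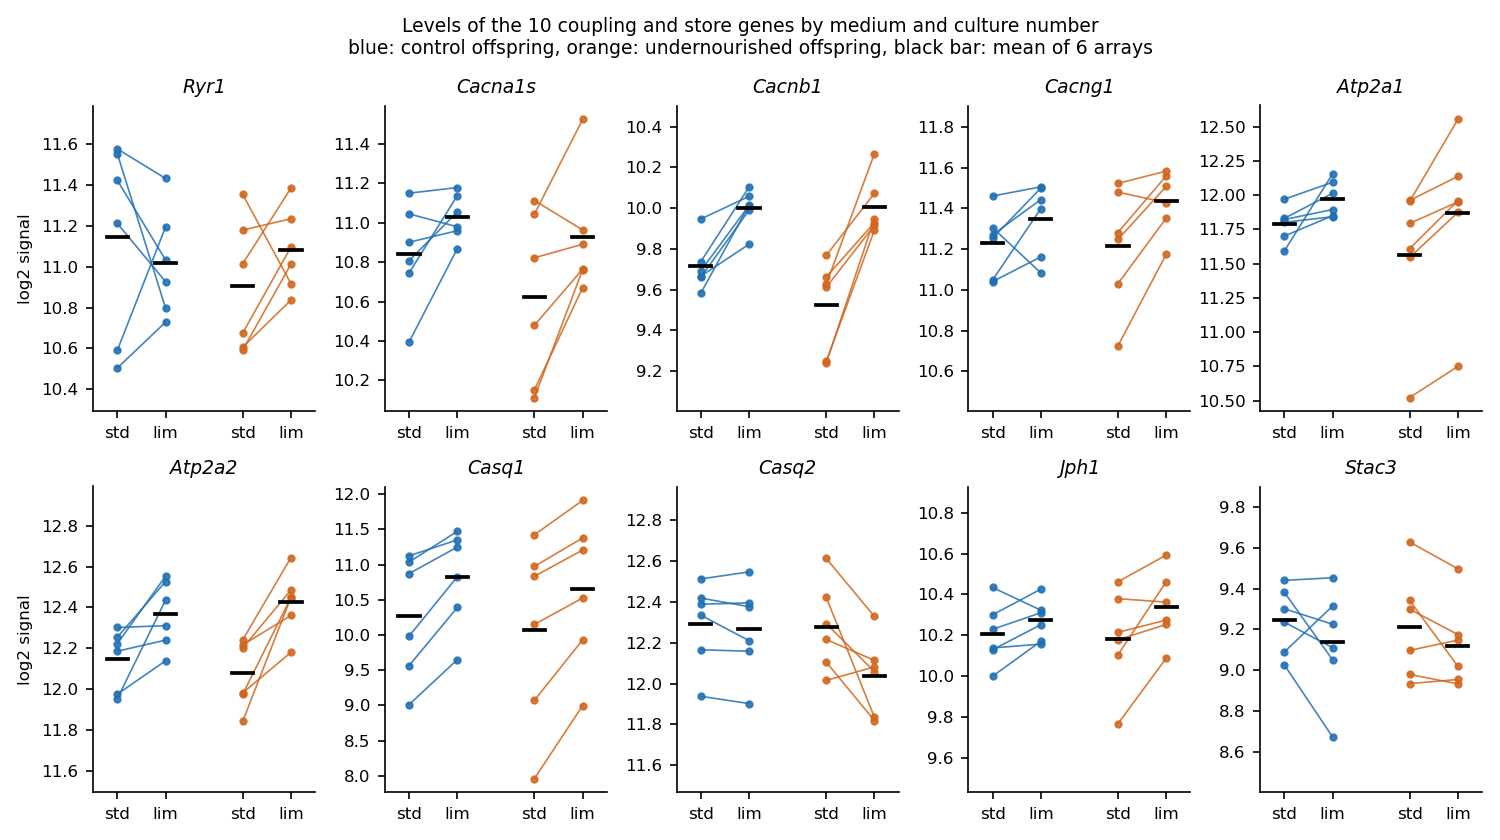
Log2 signal (vertical axis, a separate scale per gene) of the 10 genes in standard (std) and limited (lim) medium for control (blue) and undernourished (orange) offspring; each point is 1 array, lines join the arrays that carry the same culture number and black bars are means of 6 arrays. The cultures keep nearly the same order of Casq1 in both media, over a range of 3.95, and Cacnb1 in undernourished cultures is the only case in which all limited arrays lie above all standard arrays.

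The medium comparison asks how the cells differ between the limited and the standard medium, which differ in glucose, serum, glutamine and carnitine. Over both maternal diets, Cacnb1 and Atp2a2 were higher in limited medium, and none of the 10 genes was called lower. These 2 of 10 stand beside 3.56% of all genes called higher, 3.28% called lower and 6.84% in either direction (limma, adjusted p under 0.05). The median difference of the 10 genes was 0.21 on the log2 scale, against 0.01 over all genes. The differences were positive for 8 of 10, the exceptions being Casq2 and Stac3, and for Ryr1 the sign turned when the arrays were quantile normalized again (from 0.03 to -0.0046). An unadjusted p under 0.05 was found for 3 of the 10 genes and for 4504 of all genes.

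Within control cultures 0 of 10 genes were called, beside 0.167% of all genes called higher, 0.176% lower and 0.343% in either direction. Unadjusted limma p-values were under 0.05 for 2 of the 10 (Cacnb1 and Atp2a2) and for 2897 genes. Within undernourished cultures Cacnb1 alone was called, higher, beside 0.726% of genes called higher, 0.735% lower and 1.46% in either direction.

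Among the channel subunits, Cacnb1 codes for the cytoplasmic β1 subunit, which carries Cacna1s to the triad. Its log2 signal in control cultures ran from 9.58 (median 9.68) to 9.95 in standard medium and from 9.82 (median 10.01) to 10.10 in limited medium. In undernourished cultures it ran from 9.24 (median 9.62) to 9.77 in standard medium and from 9.89 (median 9.94) to 10.27 in limited medium. The control groups overlapped through culture 15, high in standard medium, and culture 24, low in limited medium. The undernourished groups did not overlap, as held in this direction for 0.469% of all genes. Over both diets the difference was 0.38 ± 0.07 (SE), with an adjusted p of 0.00103. It was 0.29 ± 0.09 in control cultures (adjusted p = 0.169) and 0.48 ± 0.09 in undernourished cultures (adjusted p = 0.00969). The undernourished call was lost without undernourished culture 4, where the difference was 0.43 and the adjusted p 0.0603. The lowest of the undernourished standard arrays were those of cultures 4 (9.24) and 20 (9.25).

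Cacna1s is the pore and voltage sensor of the same channel. Its signal was 10.84 ± 0.26 (SD, n = 6) on control arrays in standard medium and 11.03 ± 0.12 in limited medium. In undernourished cultures it was 10.62 ± 0.44 in standard and 10.93 ± 0.31 in limited medium. The groups overlapped within each diet, and undernourished culture 8 in limited medium stood above the other 5 arrays of its group at 11.52. Limited medium gave a difference over both diets of 0.25 ± 0.12 (unadjusted p = 0.0427, adjusted p = 0.225). With the culture number added to the limma fit as a block the adjusted p was 0.0348. As a random block, with a correlation of 0.19 between arrays of a number shared by all genes, limma gave an adjusted p of 0.115. Cacng1, the γ1 subunit, which limits current through the channel, differed by 0.17 ± 0.08 (adjusted p = 0.251). Its arrays ran from 10.73, in undernourished culture 20 in standard medium, to 11.58, in undernourished culture 8 in limited medium, and the groups overlapped.

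Stac3 holds the channel in a working state and is needed for coupling to Ryr1. Its signal was 9.25 ± 0.16 and 9.14 ± 0.27 in control standard and limited arrays, and 9.21 ± 0.26 and 9.12 ± 0.21 in undernourished ones. The lowest array was control culture 15 in limited medium (8.67) and the highest undernourished culture 4 in standard medium (9.63). Over both diets Stac3 differed by -0.10 ± 0.09 (adjusted p = 0.594), with 95% limits of -0.29 and 0.09.

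Ryr1 codes for the calcium release channel. In control cultures its signal ran from 10.50 (median 11.32) to 11.58 in standard medium and from 10.73 (median 10.98) to 11.43 in limited medium. In undernourished cultures it ran from 10.59 (median 10.85) to 11.35 in standard and from 10.84 (median 11.06) to 11.39 in limited medium. Control standard arrays fell into high values in cultures 5, 10, 11 and 15 and low values in cultures 16 and 24, at 10.50 and 10.59. All groups overlapped. Over both diets Ryr1 differed by 0.03 ± 0.13 (adjusted p = 0.942), that in control cultures -0.12 ± 0.18 and that in undernourished cultures 0.18 ± 0.18. The sign over both diets turned without control culture 24 (-0.05) and without cultures 16 and 20 (-0.03). The dimmer Ryr1 cluster, with group means from 6.90 to 7.14, followed the brighter one with r = 0.67 over 24 arrays and gave 0.03 ± 0.07.

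Jph1, which ties the reticulum to the transverse tubule, had the steadiest difference between media. It was 0.11 ± 0.07 over both diets (adjusted p = 0.418), and its SD over the 12 culture numbers, 0.13, was at the 3.49th percentile of all genes. Its group means ran from 10.18 in undernourished standard to 10.34 in undernourished limited arrays, and the groups overlapped.

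Casq1 codes for the main calcium buffer of the reticulum in fast fibres. In control cultures its signal ran from 9.01 (median 10.43) to 11.12 in standard medium and from 9.65 (median 11.04) to 11.47 in limited medium. In undernourished cultures it ran from 7.96 (median 10.49) to 11.43 in standard and from 9.00 (median 10.87) to 11.91 in limited medium. The groups overlapped, and the low arrays were those of undernourished cultures 8 and 1 and control cultures 15 and 16 in either medium. The difference over both diets was the largest of the 10 in size, 0.57 ± 0.37 or 1.49-fold, and did not pass (adjusted p = 0.418). Its 95% limits were -0.20 and 1.34. This fit leaves out the culture number, so the spread between numbers enters the SE. With the number as a block, limma gave limits of 0.42 and 0.73 (adjusted p = 0.000185). The random block, with its correlation of 0.19 shared by all genes, gave an adjusted p of 0.253 in limma. That shared value takes out little of a spread that lies mostly between numbers, as that of Casq1 did. Casq2, the calsequestrin of slow fibres and the heart, differed by -0.13 ± 0.08 (adjusted p = 0.400), and by -0.24 ± 0.12 in undernourished cultures (adjusted p = 0.392). Its group means were 12.29 and 12.27 in control standard and limited arrays, and 12.28 and 12.04 in undernourished ones. In control cultures the Casq2 difference of -0.03 turned to 0.04 when each array's median was subtracted.

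Atp2a2 codes for SERCA2, the pump of slow fibres, heart and non-muscle cells. In control cultures its signal ran from 11.95 (median 12.20) to 12.30 in standard medium and from 12.14 (median 12.37) to 12.55 in limited medium. In undernourished cultures it ran from 11.84 (median 12.09) to 12.24 in standard and from 12.18 (median 12.45) to 12.64 in limited medium. The undernourished groups overlapped only through culture 20, whose limited value of 12.18 lay below 3 standard values. The difference over both diets was 0.29 ± 0.07, or 1.22-fold, with an adjusted p of 0.0100. It was 0.22 ± 0.09 in control cultures (adjusted p = 0.313) and 0.35 ± 0.09 in undernourished cultures (adjusted p = 0.0588). Without cultures 16 and 20, which are rich in fibroblast markers, the differences over both diets were 0.31 ± 0.07 for Atp2a2 (adjusted p = 0.00719) and 0.36 ± 0.07 for Cacnb1 (adjusted p = 0.00334). Atp2a2 was then also called in undernourished cultures, at 0.38 ± 0.09 (adjusted p = 0.0346).

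Atp2a1 codes for SERCA1, the fast-fibre pump. Its signal ran from 11.59 (median 11.81) to 11.97 on control arrays in standard medium and from 11.84 (median 11.95) to 12.15 in limited medium. In undernourished cultures it ran from 10.52 (median 11.70) to 11.96 in standard and from 10.75 (median 11.96) to 12.55 in limited medium. Undernourished culture 1 was the lowest in both media and undernourished culture 20 the highest in limited medium. The difference over both diets was 0.25 ± 0.16 (adjusted p = 0.396). With the culture number as a block in limma the adjusted p was 0.0113. With the random block and its shared correlation of 0.19 it was 0.239.

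**Figure D2:**
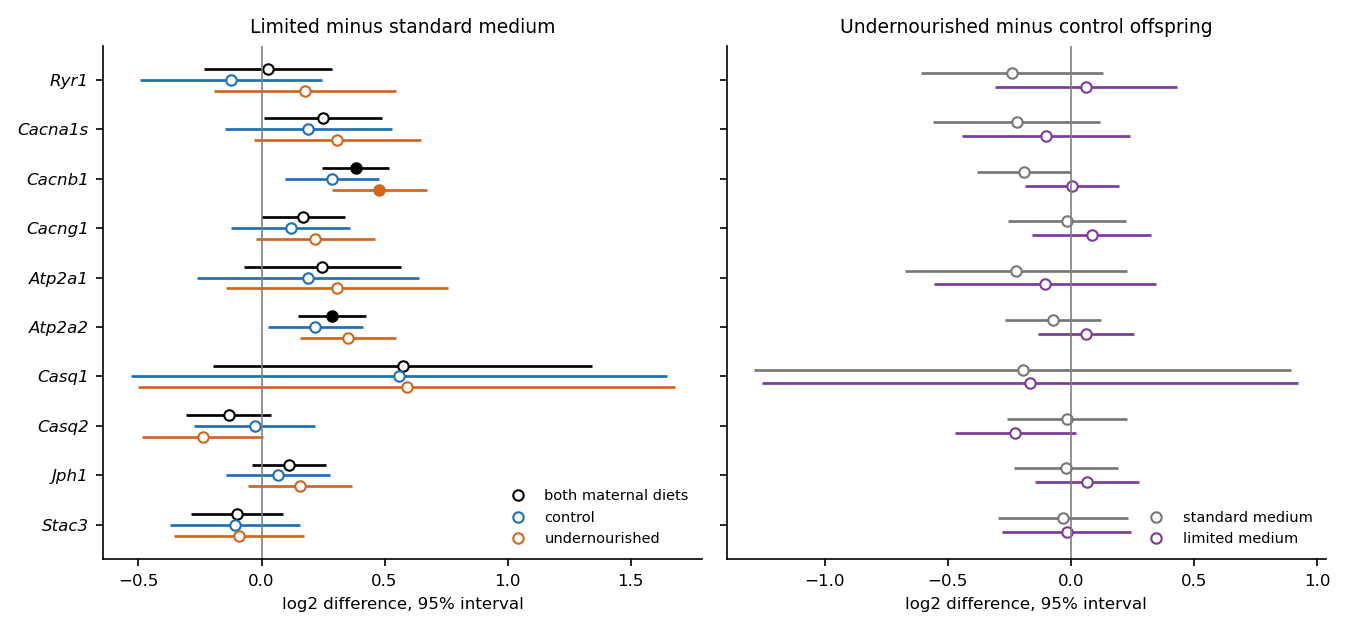
Log2 differences (horizontal axis) for the 10 genes, for the medium over both diets and within each, and for maternal diet in each medium. Bars are 95% intervals, and filled points have an adjusted p under 0.05. Cacnb1 and Atp2a2 are filled over both diets, Cacnb1 also in undernourished cultures, and no point is filled for maternal diet.

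The arrays that carry the same culture number were also set side by side, as a description without a test. Cacnb1, Atp2a1, Atp2a2 and Casq1 were each higher in limited medium in 12 of 12 numbers. Over all genes, 1.36% were higher in every number and 1.24% lower in every number. Cacna1s, Cacng1 and Jph1 were higher in 10 of 12, Ryr1 in 7, Stac3 in 4 and Casq2 in 3. For Casq1 the difference ran from 0.23 in control culture 24 to 1.04 in undernourished culture 8, the culture with the lowest Casq1. For Cacnb1 it ran from 0.11 in control culture 15 to 0.71 in undernourished culture 4, and for Atp2a2 from 0.01 in control culture 10 to 0.61 in undernourished culture 4. For Atp2a1 it ran from 0.04 in control culture 15 to 0.60 in undernourished culture 20. Ryr1 spread most, from -0.76 in control culture 5 to 0.60 in control culture 24. It was higher in limited medium in 2 of 6 control and 5 of 6 undernourished numbers. The test of that contrast between the diets follows with the interaction.

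**Figure D3:**
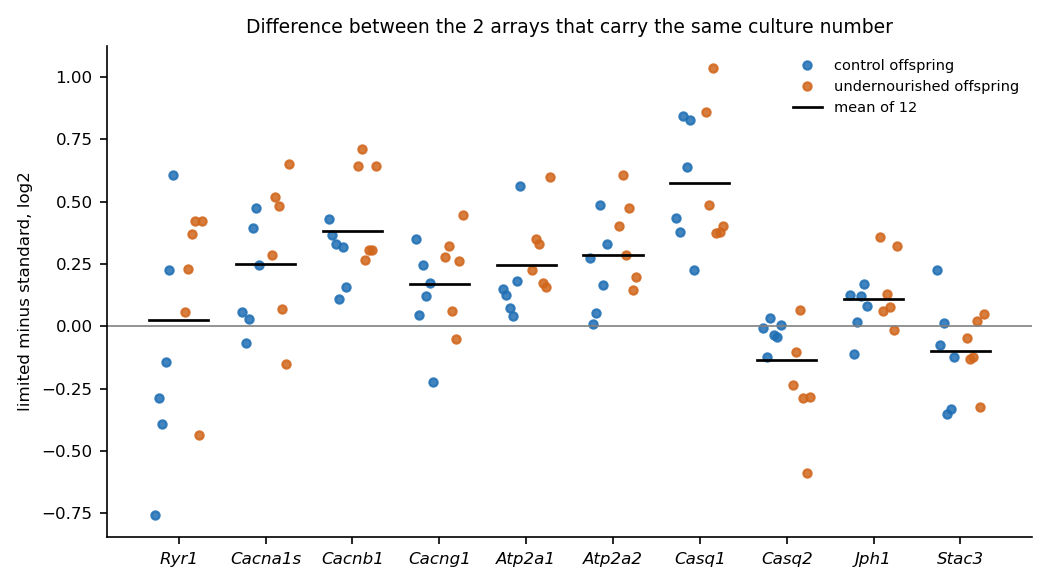
Limited minus standard medium (vertical axis, log2) for the 10 genes, each point being the difference between the arrays of 1 culture number (blue control, orange undernourished offspring) and each bar the mean of 12. All points of Cacnb1, Atp2a1, Atp2a2 and Casq1 lie above 0, whereas those of Ryr1 run from -0.76 to 0.60.

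The 10 genes differed in where their spread lay. Casq1 had an SD between culture numbers of 1.01 (log2 signal averaged over both media), exceeded by 32 of 22180 genes, whereas its response to the medium had an SD of 0.27, at the 62.4th percentile. Atp2a1 had an SD between numbers of 0.40 (740 genes larger) and a response SD of 0.18 (18.5th percentile). That SD between numbers rested on undernourished culture 1, without which it was 0.16, with 8466 genes larger. Casq1 kept an SD between numbers of 0.81 without undernourished culture 8, with 82 genes larger. In Cacnb1 and Atp2a2 the SDs between numbers were 0.13 and 0.13, below the median of all genes at 0.143. Ryr1 had the largest response SD of the 10, 0.41, at the 92.0th percentile. In standard medium fibroblast marker means were 5.51 in undernourished culture 8 (Casq1 at 7.96), 7.29 in undernourished culture 20 (10.98) and 7.16 in control culture 16 (9.57). Myotube marker means were lowest in control culture 15 (11.63, Casq1 at 9.01) and undernourished culture 1 (11.64, Casq1 at 9.07). They were 11.73 in undernourished culture 4, with the highest Casq1 in this medium (11.43), and 11.78 in undernourished culture 8. The part of cell make-up in the spread of Casq1 was not tested.

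**Figure D4:**
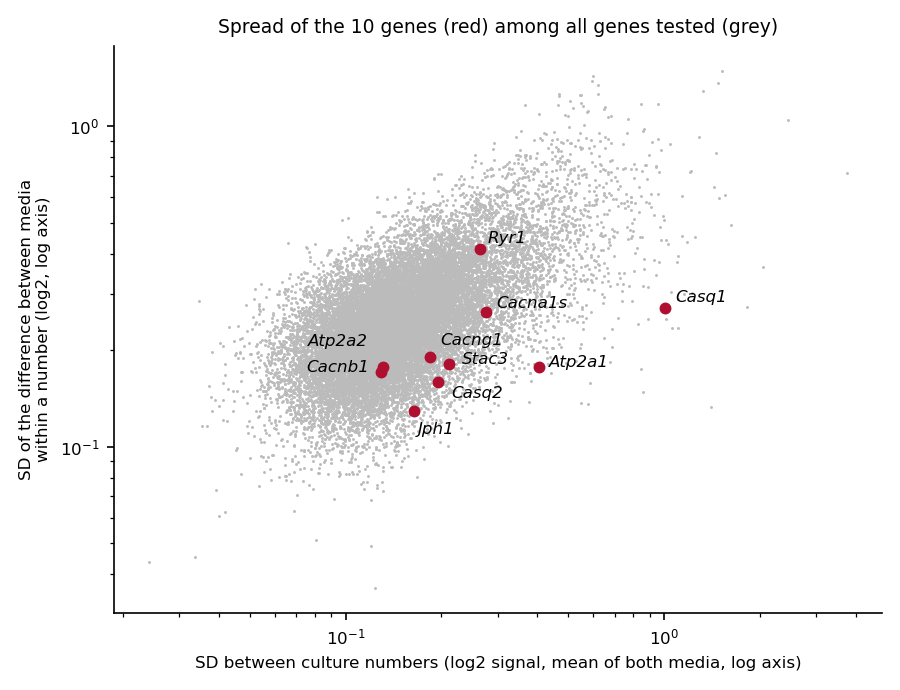
SD between culture numbers (horizontal, log2 signal averaged over both media, log axis) against SD of the difference between media within a number (vertical, log2, log axis) for all 22180 genes (grey) and the 10 genes (red, named). Casq1 lies far to the right at 1.01 with a response SD of 0.27, and Ryr1 has the largest response SD of the 10, 0.41.

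The full order of the 4 group levels was not shared by most of the genes. Undernourished standard had the lowest mean for 8 of 10, the exceptions being Casq2 and Stac3, in which undernourished limited was lowest. Of the 30 gaps between neighbours in these orders, 2 exceeded the larger SD of the neighbouring groups: that between control standard and control limited in Cacnb1 (0.29) and in Atp2a2 (0.22). The other neighbours did not differ beyond their spread.

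The maternal diet comparison asks whether cells of undernourished offspring differ from controls. No member was called in either medium or over both, beside 0% of all genes. With limma, the number of genes with an unadjusted p under 0.05 was 697 in standard medium, 1206 in limited medium and 791 over both media, and none of them was a member. With the dimmer Ryr1 cluster in place of the brighter, 1 member had such a p in standard medium and 1 over both media. No member was called with it either. In standard medium all 10 differences were negative (median -0.13, against 0.01 over all genes), but those of Cacng1, Casq2 and Jph1 turned to 0.01 each when array medians were subtracted. Leaving out a single culture number also turned signs, with highest values of 0.23 for Casq1, 0.08 for Cacng1, 0.06 for Jph1, 0.04 for Casq2 and 0.02 for Stac3. Undernourished culture 20 was the lowest undernourished standard array for Ryr1, Cacna1s, Cacng1 and Jph1. The smallest p was that of Cacnb1 (-0.19 ± 0.09, unadjusted p = 0.0533), with 95% limits of -0.38 and 0.0029. The largest in size were Ryr1 at -0.24 ± 0.18, Atp2a1 at -0.22 ± 0.22 and Cacna1s at -0.22 ± 0.16. In limited medium 5 of 10 differences were positive, and the smallest p was that of Casq2 (-0.23 ± 0.12, unadjusted p = 0.0699). Groups that did not overlap made up 0.0631% (undernourished higher) and 0.0902% (lower) of all genes in standard medium, and 0.113% and 0.0947% in limited medium, and held no member. Between media the corresponding shares were 0.573% and 0.613% in control cultures for limited higher and lower, and 0.618% lower in undernourished cultures, with no member among them.

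Over both media, with the arrays of a number averaged first (6 against 6), the difference was -0.18 ± 0.49 for Casq1 and -0.16 ± 0.20 for Atp2a1. The sign of each rested on 1 culture. Without undernourished culture 8 the Casq1 difference was 0.20, and without undernourished culture 1 the Atp2a1 difference was 0.05. The 95% limits for Casq1, -1.23 and 0.87, were the widest of the 10, and those for Atp2a2 were -0.17 and 0.16.

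Whether the medium effect differed between the diets was tested as an interaction. No member and 0% of genes were called, with an unadjusted limma p under 0.05 for 0 members and 643 genes. It was positive for 9 of 10, the exception being Casq2, with a median of 0.11 against -0.01 over all genes; the signs of Casq1 and Stac3 turned (-0.02 and -0.04) when array medians were subtracted. It was 0.19 ± 0.13 for Cacnb1 (unadjusted p = 0.155), 0.13 ± 0.13 for Atp2a2, 0.30 ± 0.25 for Ryr1 and -0.21 ± 0.17 for Casq2. The call of Cacnb1 in undernourished cultures alone is thus not a shown difference between the diets.

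Other genes of the pathway were read from a list of 51, of which 46 were measured. Over both diets 5 were higher in limited medium and 1 lower, beside 3.56% and 3.28% of all genes, with a median difference of 0.02 against 0.01 over all genes. The count fell to 3 (Kcna7, Mrln and Calr) when control culture 5 or 11 or undernourished culture 1, 4 or 12 was left out. The share of all genes called was then 4.47% to 5.1%, against 6.84% in the main fit. The count rose to 15 with the culture number as a block, beside 11.7% of all genes. With the number as a random block it was 9, beside 10.9%. Among 16 triad partners, Jsrp1, which binds Cacna1s and Casq1 (0.36 ± 0.10, adjusted p = 0.0310), and Hrc, a calcium-binding protein of the cisternae (0.29 ± 0.08, adjusted p = 0.0349), were higher. Cav3, the muscle caveolin, differed by 0.42 ± 0.15 without passing (adjusted p = 0.0936, or 0.0128 in limma with the culture number as a block). Trdn, triadin, which links calsequestrin to Ryr1, differed by 0.00 ± 0.09. Of 3 genes of membrane excitability, the potassium channel Kcna7 was higher (0.43 ± 0.08, adjusted p = 0.00265).

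Of 7 pump regulators and calcium buffers, Calr, the calcium-binding chaperone calreticulin, was higher (0.65 ± 0.10, adjusted p = 0.000455) and Mrln, myoregulin, a peptide that inhibits SERCA, was lower (-0.50 ± 0.12, adjusted p = 0.0131). Mrln was at 8.58 ± 0.14 in undernourished standard and 7.79 ± 0.15 in undernourished limited arrays. These groups did not overlap, as held in this direction for 0.618% of all genes. In the control groups, which overlapped, Mrln was at 8.39 ± 0.25 and 8.17 ± 0.56. Its interaction was -0.58 ± 0.25 (unadjusted p = 0.0278, adjusted p = 0.9998). Sln, sarcolipin, another inhibitor of the pump, differed by 0.14 ± 0.60. None of 8 other release channels, pumps and exchangers passed (median -0.18), with Ryr3 at -0.38 ± 0.15 (adjusted p = 0.131) and Slc8a3 at -0.44 ± 0.21 (adjusted p = 0.234). With the culture number as a block, limma called 3 of these 8 lower (Ryr3, Itpr2 and Slc8a3), beside 5.64% of all genes called lower. With it as a random block none of them was called. None of 5 genes of store-operated entry and mitochondrial uptake passed. Stim1, the calcium sensor of the reticulum, was at 0.26 ± 0.12 (adjusted p = 0.194, or 0.0132 in limma with the culture number as a block). Of 7 genes of calcium signalling, Rcan1, a calcineurin inhibitor, was higher (0.28 ± 0.08, adjusted p = 0.0315).

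In control cultures limma called 0 of the 46, beside 0.343% of all genes, and the smallest p-values were those of Calr (0.56 ± 0.14, adjusted p = 0.0840), Rcan1 (0.34 ± 0.11, adjusted p = 0.182) and Hrc (0.33 ± 0.12, adjusted p = 0.207). In undernourished cultures Calr (0.74 ± 0.14) and Kcna7 (0.57 ± 0.12) were higher and Mrln lower (-0.79 ± 0.17), beside 1.46% of all genes called in either direction. None was called for maternal diet or the interaction, where the smallest adjusted p in limited medium was 0.894. In order of p, the first in standard medium were Speg, a kinase of the triad (-0.34 ± 0.10), Camk2a (-0.19 ± 0.10) and Tmem38b (0.18 ± 0.11). In limited medium they were the pump Atp2a3 (0.32 ± 0.12), the exchanger Slc8a1 (-0.34 ± 0.13) and the chaperone Canx (0.22 ± 0.09), and over both media Speg (-0.21 ± 0.07), Canx (0.16 ± 0.06) and Calr (0.21 ± 0.08). For the interaction Mrln was followed by Atp2a3 (0.37 ± 0.17) and Slc8a1 (-0.36 ± 0.18).

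**Figure D5:**
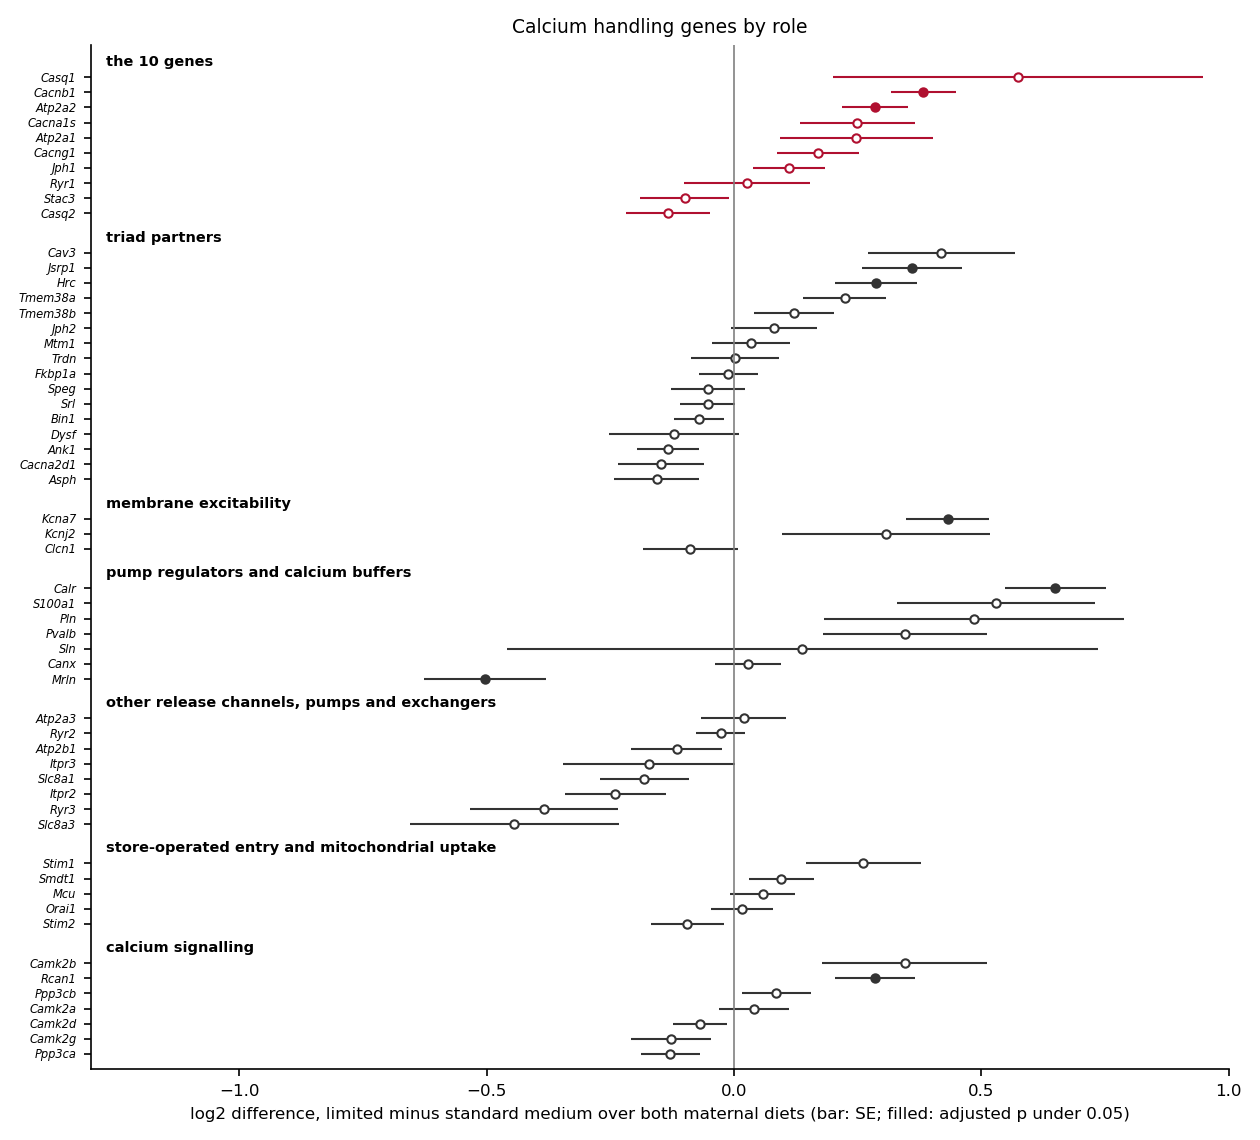
Log2 difference between limited and standard medium over both diets (horizontal axis, bars are standard errors) for the 10 genes (red) and 46 other genes of calcium handling grouped by role; filled points have an adjusted p under 0.05. Calr is the highest of the filled points at 0.65 and Mrln is the filled point below 0, at -0.50.

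Other gene groups moved in the same comparison. All 11 measured chaperones of the endoplasmic reticulum were called higher in limited medium (median 0.91), and their mean was higher in 12 of 12 culture numbers, by 0.05 in undernourished culture 20 to 1.68 in undernourished culture 1. Of 15 myotube markers, 1 (Ckm, muscle creatine kinase, 0.47 ± 0.12, adjusted p = 0.0170) was higher, and the mean of the list was higher in 11 of 12 numbers, by at most 0.21. Of 8 satellite cell and myoblast markers, 1 (Vcam1) was lower, and none of the fibroblast, glial, endothelial, leukocyte, smooth muscle or cardiac markers was called. The part of these groups in the differences of Cacnb1 and Atp2a2 was not tested.

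Fibre-type genes were read beside the fast and slow forms of calsequestrin and pump. None of 6 myosin heavy chains was called. The fast forms Myh4, Myh2 and Myh1 differed by 1.03 ± 0.46 (adjusted p = 0.201), 0.12 ± 0.25 and 0.01 ± 0.19, and the slow form Myh7 by -0.06 ± 0.25. With the culture number as a block, limma called Myh4 (adjusted p = 0.00089). Of 6 troponins, 1 was higher, the fast Tnni2 (0.49 ± 0.11, adjusted p = 0.00963). The other fast troponins, Tnnc2 and Tnnt3, differed by 0.28 ± 0.10 and 0.07 ± 0.06, and the slow Tnnt1, Tnnc1 and Tnni1 by 0.24 ± 0.13, 0.12 ± 0.06 and 0.11 ± 0.08.

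Among the 10 genes the most alike pair over 24 arrays was Cacna1s and Jph1 (Pearson r = 0.68), followed by Cacnb1 and Atp2a2 (0.66), and the least alike was Casq2 and Jph1 (-0.48). Casq1 followed none of the others closely, with Atp2a1 nearest at 0.46. Among the other genes whose mean level reached the overall median, the nearest to Cacnb1 was Rxrb (0.90). For Ryr1 it was Smg6 (0.90), with the giant sarcomere gene Ttn among the next at 0.86. For Casq1 it was Clip4 (0.87), with Ppp1r3c, a glycogen-targeting subunit of protein phosphatase 1, among the next at 0.83. The nearest to Atp2a1 was Dgka (0.81), to Atp2a2 Slc23a2 (0.84), to Cacna1s Cuedc1 (0.83), to Cacng1 Med25 (0.88), to Casq2 Pld3 (0.83) and to Jph1 Tmem8b (0.80). Stac3 was nearest to Cacng6, another γ subunit gene (0.82). These values describe arrays that share groups and culture numbers, and no p is given.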

How the data were processed

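RNA of 24 samples was measured on 1 array each. The deposited values are log2 signal per transcript cluster, made by the authors with RMA in Affymetrix Expression Console per the submitters' processing notes. Neither their versions nor the genome build is given in the sources used here. The base of the logarithm is not stated and was read as 2 from the range (1.69 to 14.1). RMA includes a quantile step, yet the array medians of the deposited clusters still ran from 5.60 to 5.81, so scaling was varied as an alternative. The array number limits the precision. Of 41345 clusters, 23521 had 1 gene symbol, 1814 several and 16010 are not named here; 23328 were matched by Entrez identifier to RefSeq (GRCm38.p6). The brightest cluster was used per gene, which left 22180 genes, unfiltered.

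Each gene was fitted with limma 3.58.1 (lmFit, eBayes; R 4.3.3) on all 24 arrays in 4 groups, with two-sided p-values adjusted by Benjamini-Hochberg across all 22180 genes (threshold 0.05). Maternal diet over both media used 12 averages per culture number. Errors are SE of differences and SD of levels. The fit was also run on simulated data in which every gene had the same share of spread between cultures. Genes such as Casq1, whose spread lay mostly between culture numbers, were not covered by that setting. All 10 members are named, and pathway genes come from a list counted in full. Of it, up to 8 called genes per comparison are named, or the 3 with the smallest p where none was called; Cav3, Trdn, Sln, Ryr3, Slc8a3 and Stim1 over both diets were named after their values were seen, as were fibre-type genes beyond the 4 the rule allows per list. For each member the 3 other genes with the highest Pearson r were found among those whose mean level reached the overall median. The members, lists and comparisons were chosen with earlier results of these data known. Alternatives comprised other scalings, filters, blocks, weights, left-out arrays and another Ryr1 cluster; the last, and the spread without each culture number, were added after seeing the data. Motifs were searched in RefSeq promoter windows with Python 3.11.15.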

Additional observations from a re-analysis of the deposited data

Results flagged for a closer look

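Each of the 10 genes was examined for a single outlying array in each of the 4 groups of 6 (40 sets), and 2 were found, where chance gives about 1 in 20. Cacna1s was high in undernourished culture 8 in limited medium, at 11.52 against 10.96 for the nearest array of the group. Without that culture the medium difference in undernourished cultures was 0.27 in place of 0.31, and it was not called either way. Atp2a1 was low in undernourished culture 1 in standard medium, at 10.52 against 11.55 for the nearest array; the same culture was also lowest in limited medium, at 10.75. Without it the maternal diet difference of Atp2a1 in standard medium was -0.01 in place of -0.22.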

How the results depend on the processing

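The 70 member results were recomputed under 24 settings (23 planned, 1 added), which gave 1484 alternative values: 1398 kept direction and side of the threshold, 12 passed it newly, 2 lost it and 72 changed sign, 65 of these in the maternal diet and interaction comparisons, where no alternative called a member (smallest adjusted p 0.425). Cacnb1 and Atp2a2 were called over both diets in all 21 alternatives, with limma adjusted p from 0.00016 to 0.00482 and from 0.00250 to 0.0331. Arrays of a culture number correlated in their deviations from group means from -0.05 to 0.56, over 0.1 in 10 of 12 numbers. Of 24 arrays, 20 correlated best with their own number. The exceptions in both were undernourished cultures 9 (-0.05) and 12 (0.02). A shared number thus went with alike arrays in most cultures but not in all. The number was left out of the main fit and used as a block in alternatives. With the number as a replicate block the members called were 5 over both diets (2 without; Cacna1s, Atp2a1 and Casq1 added, beside 11.7% of all genes; Casq1 adjusted p = 0.000185), 1 in control cultures (0 without; Casq1, beside 2.48%) and 4 in undernourished cultures (1 without, beside 4.54%). Of the 46 pathway genes the block called 15 over both diets, beside 11.7% of all genes. The random block called 9 (beside 10.9%) and the main fit 6 (beside 6.84%). Cav3, Stim1, Ryr3, Itpr2 and Slc8a3 were among the 15. Of the myosin heavy chains the block called 1, Myh4 (adjusted p = 0.00089). In undernourished cultures the count of members was 2 with the number as a random block (beside 3.71% of all genes) and without cultures 16 and 20 (beside 2.23%). It was also 2 with genes at or above the median level only (beside 4.25% of these) and with array weights (beside 2.57%). With the groups compared alone it was 0, beside 0.266% (Cacnb1 limma adjusted p = 0.0748). Over left-out culture numbers it was 0 to 2, beside 0.23% to 2.11%. The Ryr1 difference over both diets was -0.033 without cultures 16 and 20, -0.0046 after quantile normalization again and -0.037 with array weights, and ran from -0.047 to 0.0894 over left-out numbers; in control cultures it ran from -0.27 to 0.0018. Casq2 in control cultures was 0.044 with array medians subtracted. The causes were not tested.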
